A study of Homo sapiens with 9 samples.

Results

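The HOX genes of the HOXA, HOXB, HOXC and HOXD clusters, which encode homeodomain transcription factors, were followed in HEK293T cells with lowered SIN3A or SIN3B. They were taken by symbol from the protein-coding genes of the clusters, and 38 of the 58734 genes in the count table are described here. HEK293T cells derive from human embryonic kidney and express the large T antigen of SV40. The cells received 10 nM of a control siRNA, an siRNA against SIN3A or an siRNA against SIN3B and were harvested after 36 h, with 3 libraries in each of 3 groups. Messenger RNA was selected by its poly-A tail and sequenced from stranded libraries, and all groups shared the line, the medium and the transfection reagent. One line under transient knockdown was studied, and the labels do not say whether replicates were separate transfections, so the spread behind the p-values is that of these libraries and may be technical.

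HOX genes lie in tight clusters in which the order of the genes follows the order in which they are used along the body axis, and genes at the same place in different clusters form paralog groups. Cultured cells keep part of the HOX pattern of the tissue they came from, held by Polycomb complexes on silent genes and Trithorax-type methyltransferases on active ones. SIN3A and SIN3B are paralogous scaffolds of a histone deacetylase complex that DNA-binding proteins recruit, among them the MXD partners of MAX, which bind the E-box CACGTG. SIN3B also forms a separate smaller complex, and both scaffolds are known to act at repressed and at active genes.

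Promoters of 4 HOX genes that the results turn on are shown first, as 300 bases from 250 before to 50 after a RefSeq start site (GRCh38.p14), 5′ to 3′ on the gene's own strand, with any CACGTG in capitals. HOXA7 (chr7:27156626-27156925, minus strand) and HOXA9 (chr7:27165488-27165787, minus strand) were the HOX genes with the lowest adjusted p among those that rose with SIN3B knockdown. HOXA13 (chr7:27200042-27200341, minus strand) had the lowest among those that fell, and HOXD13 (chr2:176092471-176092770, plus strand) fell with either knockdown. In HOXA7 the motif begins 5 bases before the start site, in HOXA9 71 bases and in HOXD13 131 bases before it, and the HOXA13 window holds none.
HOXA7: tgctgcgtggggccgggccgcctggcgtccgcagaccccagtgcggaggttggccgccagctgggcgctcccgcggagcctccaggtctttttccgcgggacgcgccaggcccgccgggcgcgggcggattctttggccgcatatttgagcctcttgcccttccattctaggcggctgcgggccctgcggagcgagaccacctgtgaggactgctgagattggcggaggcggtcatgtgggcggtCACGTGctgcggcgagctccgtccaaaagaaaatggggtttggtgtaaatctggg
HOXA9: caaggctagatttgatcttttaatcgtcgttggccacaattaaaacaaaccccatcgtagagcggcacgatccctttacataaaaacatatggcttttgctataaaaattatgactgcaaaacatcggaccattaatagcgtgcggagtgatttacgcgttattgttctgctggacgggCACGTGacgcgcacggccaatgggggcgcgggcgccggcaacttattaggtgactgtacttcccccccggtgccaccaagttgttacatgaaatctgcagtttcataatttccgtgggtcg
HOXA13: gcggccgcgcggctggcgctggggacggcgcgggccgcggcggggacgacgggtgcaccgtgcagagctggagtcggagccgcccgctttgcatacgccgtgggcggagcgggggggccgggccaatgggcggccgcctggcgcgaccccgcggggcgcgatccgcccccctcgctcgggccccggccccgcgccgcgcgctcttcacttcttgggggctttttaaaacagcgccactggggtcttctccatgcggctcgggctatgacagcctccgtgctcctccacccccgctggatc
HOXD13: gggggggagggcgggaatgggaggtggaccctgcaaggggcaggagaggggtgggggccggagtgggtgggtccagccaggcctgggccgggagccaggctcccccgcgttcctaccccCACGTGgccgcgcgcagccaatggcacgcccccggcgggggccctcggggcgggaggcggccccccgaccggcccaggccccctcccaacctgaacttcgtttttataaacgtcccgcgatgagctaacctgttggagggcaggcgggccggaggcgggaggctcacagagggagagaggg

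CACGTG, which reads the same on both strands, was found in the windows of 9 of the 20 HOX genes that the RefSeq table holds (9 of 27 windows), against 7.26% of 35116 windows of all genes. The 9 genes are HOXA3, HOXA4, HOXA7, HOXA9, HOXD1, HOXD3, HOXD10, HOXD11 and HOXD13. Of 3 further motifs searched on both strands, TATAAA was in 5 of 27 HOX windows (11.5% of all windows), GTAAACA in 2 of 27 (3.42%) and GGGCGG in 13 of 27 (45% of all). A match is a description of letters in the window, HOXA3 has it at 1 of several start sites, and HOXC4 and HOXC5 share a window.

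Library totals of the deposited counts ran from 22542798 to 27084884. At least 98% of a library's nonzero values could be divided by 4, so the floor was set at 3 units of 4, or 12 counts, which is 0.442 to 0.552 CPM and covers counting error only. CPM here means counts per 1000000 counts of the library, set on one scale by the trimmed mean of M-values (TMM). The siRNAs left 32.5% of the control level of SIN3A (from 145 to 47.3 CPM) and 57.3% of that of SIN3B (from 96.2 to 55.1 CPM), so the SIN3B knockdown was the weaker. The SIN3A knockdown libraries lay further apart than the others, with chi-square values per degree of freedom between 3.77 and 7.97 for their pairs, against 1.46 to 2.07 in the other groups. All 7 HEK293T markers examined were above the floor in every library, and their summed level was 1306 to 1439 CPM in control, 1097 to 1363 CPM in SIN3A knockdown and 994 to 1058 CPM in SIN3B knockdown libraries, whose part in the results was not tested. Of the haematopoietic, hepatocyte and fibroblast markers, 1 of 4, 0 of 3 and 1 of 4 were above the floor in all libraries, and PTPRC, CD3E, TTR, COL1A2 and DCN were at 0 in all of them.

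HEK293T cells held transcripts of nearly every HOX gene. Of 38 genes, 32 were above the floor in every library, and HOXC5, HOXC12, HOXD3, HOXD4 and HOXD12 were at or under it in at least 1 library. HOXB1, a hindbrain gene at the anterior end of its cluster, had 0 counts in all 9 libraries, which allows up to 0.442 to 0.552 CPM. HOXD12 had no count in 3 libraries and at most 0.318 CPM in the others, and neither gene could be tested. The remaining 36 passed the filter on low counts.

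Levels of different genes were compared per length, as RPKM, the same scaled CPM divided by kilobases of exon in GENCODE 29. HOXB9, a gene of rib and thoracic patterning, was the most abundant, at 146 ± 4.6 RPKM in control libraries (SD, n = 3). HOXD13, a digit and genital tract gene, was next at 53.5 ± 3.74 RPKM, followed by the lung and vertebral patterning gene HOXA5 at 52.2 ± 2.23 RPKM, and the SDs of these 2 overlap. HOXB8 (31.6 ± 1.85), HOXA9 (31.3 ± 1.54), HOXA10 (31.2 ± 1.65) and HOXD9 (29.2 ± 0.916 RPKM) lay together within about their spread. HOXC4 at 25.6 ± 1.45 RPKM and HOXC9, a regulator of thoracic motor neuron identity, at 17.5 ± 0.671 RPKM led the HOXC cluster. In the HOXD cluster, HOXD1, HOXD3 and HOXD4 were under 1 RPKM in every group, while HOXD9, HOXD10 and HOXD13 were above 19 RPKM in every group. Exons shared with another gene on the same strand cover 80.5% of HOXD4, 62.2% of HOXD3 and 59.9% of HOXC5, so these values are uncertain.

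**Figure D1:**
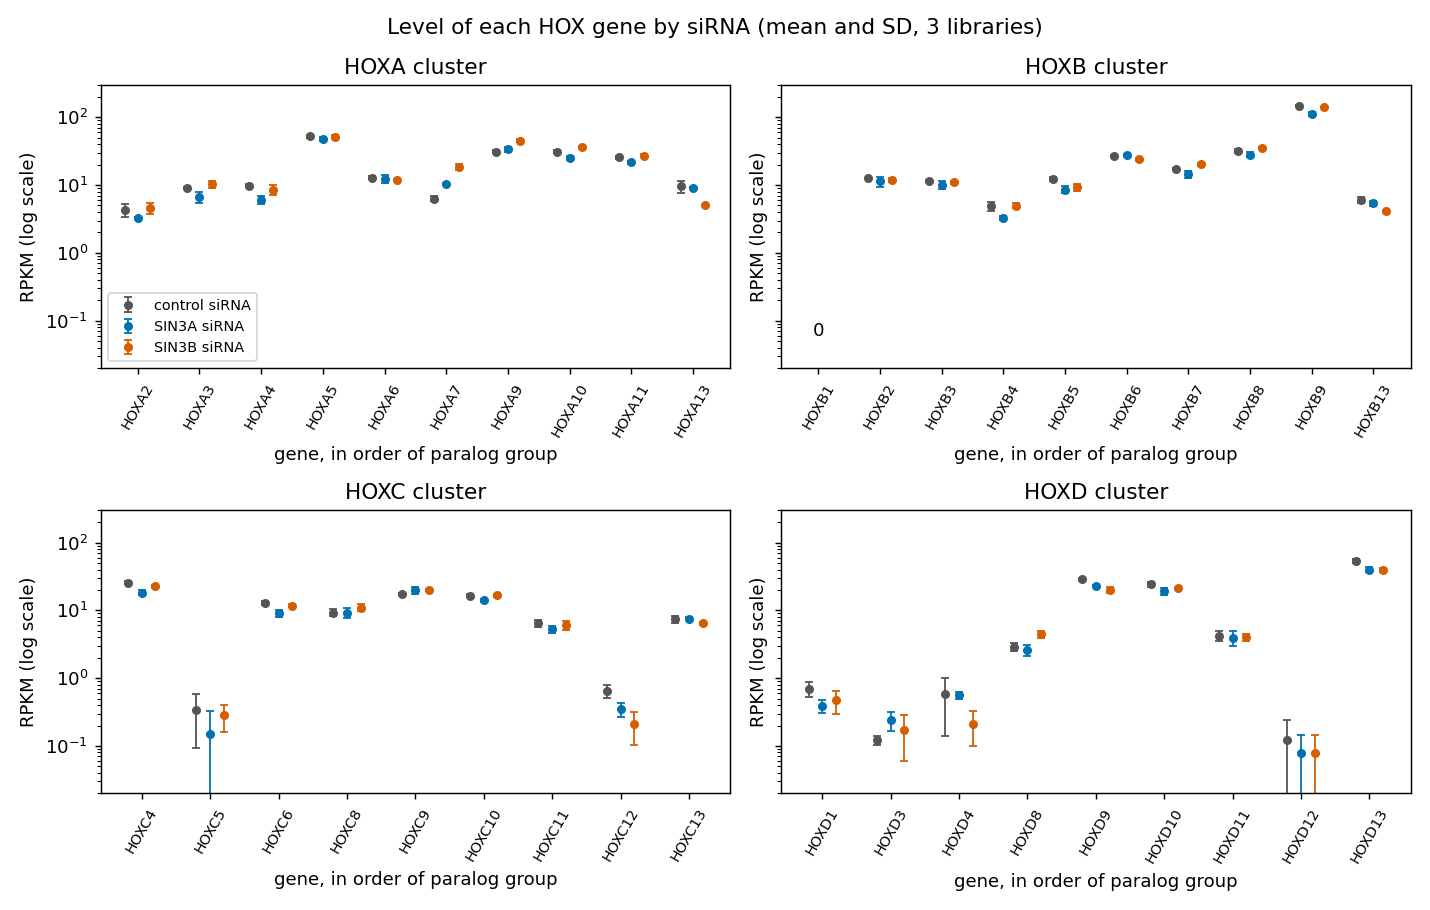
Level of each of the 38 HOX genes (RPKM, log axis) in the order of paralog groups along each cluster, with points for the mean and bars for the SD of 3 libraries per siRNA. HOXB9 stands highest at 146 ± 4.6 RPKM in control libraries, HOXB1 is at 0 throughout, and HOXD1 to HOXD4 lie under 1 RPKM.

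Summed over a cluster, HOX transcripts were lower on average than in control in all 4 clusters with SIN3A siRNA, and in the HOXD cluster alone without overlap of libraries with SIN3B siRNA; these sums are a description without a test. The HOXA sum was 191, 189.6 and 195 RPKM in the control libraries, 175, 172 and 184 in the SIN3A knockdown (92.2% of the control mean) and 225, 227 and 208 in the SIN3B knockdown (114.5%). The HOXA groups did not overlap, with SIN3A knockdown libraries lowest and SIN3B knockdown libraries highest. The HOXB sum was at 82.7% of control with SIN3A siRNA and 96.8% with SIN3B siRNA, and the HOXC sum at 86.5% and 98.1%. The HOXD sum was 114, 112 and 121 RPKM in control, 88.6, 87.3 and 94.4 in SIN3A knockdown and 92.0, 88.7 and 89.1 in SIN3B knockdown libraries, or 78.0% and 77.8% of control. Each knockdown library of the HOXD sum was below each control library. A sum follows its most abundant genes: HOXB9 held 146 of 269 RPKM of HOXB in control, and HOXD13 held 53.5 of 116 RPKM of HOXD. A lower sum therefore does not mean that every gene of the cluster fell. In bulk RNA, less transcript per cell and fewer cells with the transcript cannot be told apart.

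The first comparison asked which HOX transcripts changed when SIN3A was lowered. Of 36 tested HOX genes, 12 fell and 1 rose (edgeR quasi-likelihood test, adjusted p under 0.05 over all genes, hereafter called). Over all 16686 genes tested 23.0% were called, 12.2% higher and 10.8% lower, against 36.1% of the HOX genes, 2.78% higher and 33.3% lower. The median log2 fold change of the 36 was -0.23, against -0.002 over all genes, and 30 of 36 values were negative. Among 4906 other genes between the quartiles of the HOX levels (15.5 to 58.6 CPM), 30.4% were called, 18.4% higher and 12.0% lower. With upper-quartile factors in place of TMM, all calls split into 1352 higher and 2313 lower in place of 2029 and 1807, and the HOX calls into 1 and 13.

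The fallen genes came from all 4 clusters and lay at 61.8% to 84.8% of their control mean. In paralog group 4, 3 of 4 genes fell, where 33.3% of all tested HOX genes did: HOXA4, HOXB4 and HOXC4. The group was picked out by these calls, without a test of it. HOXA4 was at 18.1, 17.1 and 16.3 CPM in control and 9.56, 12 and 10.2 CPM in SIN3A knockdown libraries, a log2 fold change of -0.69 ± 0.15 (SE, edgeR adjusted p = 0.0024). HOXB4, which expands blood stem cells when overexpressed, went from 17.3, 21.8 and 16.1 CPM in control to 11.2, 12.8 and 12.5 CPM in the knockdown (-0.59 ± 0.14, edgeR adjusted p = 0.0042). HOXC4 went from 65.4, 70.7 and 73.2 CPM in control to 45.6, 48.6 and 53.9 CPM in the knockdown (-0.50 ± 0.09, edgeR adjusted p = 0.00041). The lowest control library of each of these genes was above the highest knockdown library. HOXA4 shares 31.0% of its exon bases with another annotated gene on its strand, which leaves its level uncertain. HOXB4 shares 17.1% and HOXC4 17.8% of theirs in the same way, and HOXC4 shares some with HOXC6, which also fell. The remaining member, HOXD4, was near the floor, at 0.476, 0.469 and 1.58 against 0.735, 0.782 and 0.939 CPM, and was not called.

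The most abundant HOX transcript also fell. HOXB9 was at 373, 391 and 369 CPM in control and 276, 315 and 288 CPM in SIN3A knockdown libraries, so 77.5% remained (-0.37 ± 0.07, edgeR adjusted p = 0.00049), without overlap of the groups. HOXB5, a gene of the neural crest that forms the gut's nervous system, was at 23.7, 25 and 26.5 CPM in control and 15.1, 18.6 and 18.6 CPM in SIN3A knockdown libraries (-0.52 ± 0.13, edgeR adjusted p = 0.0057). HOXC6, which marks limb-level motor neurons, was at 47.5, 46 and 42.6 CPM in control and 29.8, 35.8 and 30.1 CPM in SIN3A knockdown libraries (-0.51 ± 0.10, edgeR adjusted p = 0.0011). In both genes every knockdown library was below every control library. HOXD13 was at 112, 118 and 129 CPM in control and 91, 80.5 and 96.4 CPM in SIN3A knockdown libraries (-0.42 ± 0.08, edgeR adjusted p = 0.0012). These calls for HOXB5, HOXB9, HOXC6 and HOXD13, and those in paralog group 4, held under all 20 alternatives run.

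The other 5 falls were smaller or less secure. HOXA3, which patterns the thymus and parathyroid, was at 40.7, 39 and 37.7 CPM in control and 22.4, 30.6 and 32.9 CPM in SIN3A knockdown libraries (-0.45 ± 0.12, edgeR adjusted p = 0.014). Replicate 1 of the knockdown was the lowest, and the call was lost without it (-0.28) or without control replicate 1 (-0.42), and in both fits to log2 FPKM. HOXA10, a uterine and blood progenitor gene, was at 109.6, 116 and 122 CPM in control and 101, 88.2 and 93.5 CPM in SIN3A knockdown libraries (-0.30 ± 0.07, edgeR adjusted p = 0.0061), and its call was lost without control replicate 3 (-0.24). HOXA11, a limb and kidney patterning gene, was at 58, 61.3 and 57.4 CPM in control and 53, 47.2 and 49.8 CPM in SIN3A knockdown libraries (-0.24 ± 0.08, edgeR adjusted p = 0.048). Its groups did not overlap, and 31.1% of its exon bases lie opposite HOXA11-AS, but the call was lost under 15 of 20 alternatives, among them leaving out any control library (-0.25, -0.21 and -0.24), SIN3A knockdown replicate 2 (-0.20) or 3 (-0.23), or SIN3B knockdown replicate 2 or 3 (-0.24 each).

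In the HOXD cluster, HOXD9 and HOXD10 fell beside HOXD13. HOXD9 was at 55.3, 52.7 and 56 CPM in control and 41.9, 43.8 and 44.5 CPM in SIN3A knockdown libraries (-0.33 ± 0.09, edgeR adjusted p = 0.013), and only leaving out control replicate 3 removed the call (-0.30). HOXD10, which helps specify lumbar motor neurons, was at 65.9, 60.1 and 69 CPM in control and 44.7, 57.1 and 53.7 CPM in SIN3A knockdown libraries (-0.33 ± 0.09, edgeR adjusted p = 0.017). That call was lost without control replicate 1 (-0.31) or 3 (-0.27), without SIN3A knockdown replicate 1 (-0.21) and in both fits to log2 FPKM. HOXD10 was also the only one of 36 HOX genes with GGTCTAA or AGGTCTA in an annotated 3′ UTR. Those 7-base sequences were in 9.49% of 13422 genes searched and in 17.5% of genes that fell with SIN3A siRNA. They were chosen for a link with falls in these data, so the larger share among fallen genes is no separate evidence. Their part in the fall of HOXD10 was not tested.

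HOXA7 was the HOX gene that rose. It was at 16.5, 14.2 and 14.9 CPM in the control libraries and 25.6, 25.3 and 25.1 CPM in the SIN3A knockdown libraries. All 3 knockdown libraries were above all 3 control libraries, a 1.66-fold difference (0.73 ± 0.11, edgeR adjusted p = 8.7e-05), and the call held under all 20 alternatives. HOXA7 (ENSG00000122592, chromosome 7, 27153716 to 27157936 on the minus strand, GRCh38) shares 62.5% of its exon bases with HOXA-AS3 on the opposite strand, and whether the counting used the strand is not given in the sources used here. HOXA-AS3 itself was at 8.73, 10.5 and 10.9 CPM in control and 4.96, 8.29 and 6.89 CPM in SIN3A knockdown libraries (-0.57 ± 0.18, edgeR adjusted p = 0.028), lower where HOXA7 was higher.

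**Figure D2:**
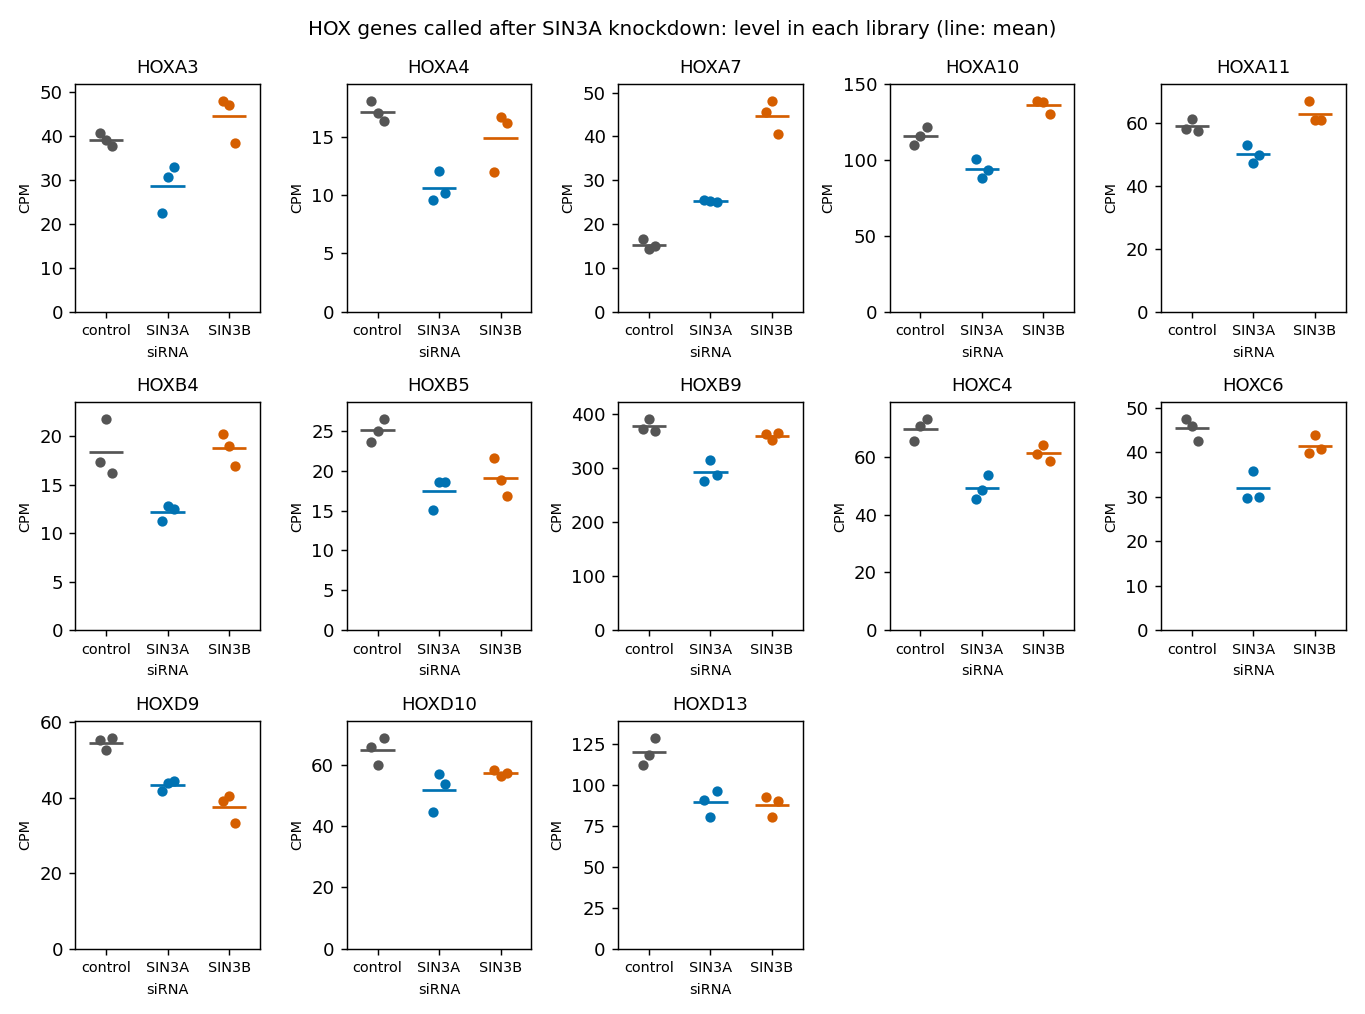
Level in each library (CPM, linear axis from 0) of the 13 HOX genes called after SIN3A knockdown, by siRNA, with a line at the mean of 3 libraries. HOXA7 alone is higher in the SIN3A knockdown than in control. The SIN3A and control libraries do not overlap in these 13 genes, which were picked by their calls. They do not overlap in some uncalled HOX genes either, such as HOXA2 and HOXB7.

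The 23 HOX genes not called with SIN3A siRNA had log2 fold changes from -1.16 to 0.99, with both ends in genes near the floor (HOXC5 and HOXD3). HOXA5 was at 89.7, 85 and 92.5 CPM in control, 79.2, 78.3 and 89.4 CPM in SIN3A knockdown and 90.5, 91.8 and 84.1 CPM in SIN3B knockdown libraries. HOXC9 was at 29.4, 30.5 and 28.2 CPM in control, 38.1, 32.1 and 29.9 CPM with SIN3A siRNA and 34.7, 33.9 and 32.6 CPM with SIN3B siRNA. The groups of libraries overlapped with control in HOXA5 for both knockdowns and in HOXC9 for the SIN3A knockdown.

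Lowering SIN3B was set against the same control libraries. Of 36 tested HOX genes, 4 rose and 6 fell, or 27.8%, near the 23.6% called over all genes (12.0% higher and 11.6% lower). Among other genes between the quartiles of the HOX levels 34.3% were called, 19.2% higher and 15.1% lower. The median log2 fold change of the HOX genes was -0.095, against -0.015 over all genes, and 14 of 36 values were positive. Upper-quartile factors split all calls into 1693 higher and 2286 lower in place of 2001 and 1938, and offsets for GC content and length into 1163 and 2291. The HOX calls were then 3 higher and 6 lower, and 6 higher and 5 lower.

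The rises were those of HOXA7, HOXA9 and HOXA10, which are neighbours on chromosome 7, and of HOXD8. HOXA7 was at 16.5, 14.2 and 14.9 CPM in control and 45.6, 48.2 and 40.5 CPM in SIN3B knockdown libraries. That is a 2.94-fold difference (1.55 ± 0.11, edgeR adjusted p = 6.4e-09), and the lowest knockdown library held more than any control library. HOXA-AS3 on the opposite strand was at 10.7, 12.1 and 13 CPM in the SIN3B knockdown and was not called (0.25 ± 0.18, edgeR adjusted p = 0.36).

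HOXA9 (ENSG00000078399, chromosome 7, 27162435 to 27175180 on the minus strand), a self-renewal factor of blood progenitors and a target of KMT2A fusions in leukaemia, rose as well. It was at 99.1, 89.8 and 95.3 CPM in control and 140.4, 142 and 128 CPM in SIN3B knockdown libraries, without overlap (1.45-fold, 0.53 ± 0.08, edgeR adjusted p = 4.9e-05). With SIN3A siRNA it was at 105, 93.8 and 109 CPM, overlapping control (0.11 ± 0.08, edgeR adjusted p = 0.32). The HOXA7 and HOXA9 calls held under all 20 alternatives. HOXA10 was at 139, 138 and 130.4 CPM in SIN3B knockdown libraries, above the 109.6, 116 and 122 CPM of control (0.23 ± 0.07, edgeR adjusted p = 0.023). Its call was lost under 7 of 20 alternatives, among them leaving out control replicate 1 (0.20) or 2 (0.22) or SIN3B knockdown replicate 1 (0.20) or 2 (0.22).

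HOXD8 was the remaining rise. It was at 8.73, 7.51 and 6.67 CPM in control and 10.2, 13.1 and 12 CPM in SIN3B knockdown libraries (1.54-fold, 0.62 ± 0.18, edgeR adjusted p = 0.014), without overlap. The call was lost without control replicate 2 (0.60) or 3 (0.54) and without SIN3B knockdown replicate 2 (0.54) or 3 (0.61).

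In paralog group 13, the posterior end of the clusters, 3 of 4 genes fell: HOXA13, HOXB13 and HOXD13. Of all tested HOX genes 16.7% fell, and the group was picked out by these calls, without a test of it. HOXA13 (ENSG00000106031, chromosome 7, 27193503 to 27200106 on the minus strand), which patterns digits and the genital tract, was at 41.1, 45 and 59.8 CPM in control, 45.6, 47.1 and 47.8 CPM in SIN3A knockdown and 26, 25.2 and 26.1 CPM in SIN3B knockdown libraries. The SIN3B knockdown libraries lay close together below all others, at 53% of the control mean (-0.92 ± 0.12, edgeR adjusted p = 1.2e-05), and the control libraries spread most. HOXB13, a prostate lineage factor, was at 18.6, 21.1 and 23.2 CPM in control and 13.8, 14.7 and 14.4 CPM in SIN3B knockdown libraries (-0.55 ± 0.13, edgeR adjusted p = 0.0033). HOXD13 was at 92.5, 80.4 and 90.0 CPM in SIN3B knockdown libraries, 73.1% of control (-0.45 ± 0.08, edgeR adjusted p = 0.00056), about where SIN3A siRNA had left it. The other member, HOXC13, was at 17.6, 20.5 and 16 CPM in control and 15.1, 16.4 and 15.2 CPM with SIN3B siRNA, overlapped with control and was not called (-0.21 ± 0.13, edgeR adjusted p = 0.26).

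The other falls with SIN3B siRNA were HOXD9, HOXB5 and HOXC12. HOXD9 was at 39.1, 40.4 and 33.4 CPM against 55.3, 52.7 and 56 CPM in control, without overlap (-0.54 ± 0.09, edgeR adjusted p = 0.00028). HOXB5 was at 21.6, 18.9 and 16.8 CPM against 23.7, 25 and 26.5 CPM in control, again without overlap (-0.39 ± 0.13, edgeR adjusted p = 0.028). The HOXB5 call was lost under 7 of 20 alternatives, including without control replicate 2 (-0.41) or 3 (-0.35), without SIN3B knockdown replicate 2 (-0.38) or 3 (-0.31) and with GC offsets. HOXC12 was low throughout, at 2.06, 2.66 and 1.75 CPM in control, 1.47, 0.938 and 1.1 CPM in SIN3A knockdown and 0.765, 1.03 and 0.32 CPM in SIN3B knockdown libraries, the last library under the floor. Its fold change (-1.60 ± 0.47, edgeR adjusted p = 0.016) ranged from -1.98 to -0.51 over the alternatives, and the call was lost without control replicate 2 (-1.44) or SIN3B knockdown replicate 3 (-1.26). HOXC12 and HOXB4 hold ACAGCCT or CAGCCTT in the 3′ UTR, 7-base sequences found in 31.6% of genes searched and 45.2% of genes that fell with SIN3B siRNA. These sequences too were chosen for a link with falls in these data, so the larger share is no separate evidence. Their part in the fall of HOXC12 was not tested.

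**Figure D3:**
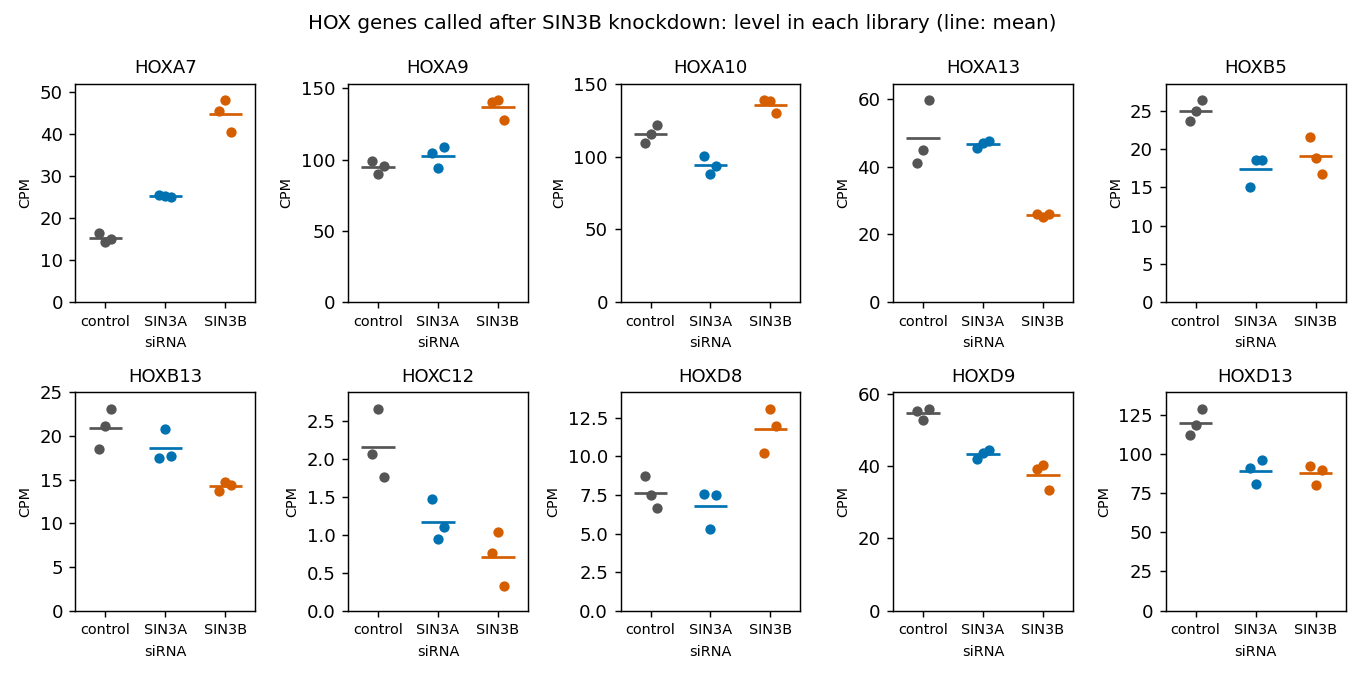
Level in each library (CPM, linear axis from 0) of the 10 HOX genes called after SIN3B knockdown, by siRNA, with a line at the mean of 3 libraries. HOXA7, HOXA9, HOXA10 and HOXD8 are highest with SIN3B siRNA, and HOXA13 drops to between 25.2 and 26.1 CPM.

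The SIN3A and SIN3B comparisons share their 3 control libraries, so their values are set side by side and the difference is read from the knockdowns compared directly. HOXA7 was called higher in both (log2 fold changes of 0.73 and 1.55). HOXB5 (-0.52 and -0.39), HOXD9 (-0.33 and -0.54) and HOXD13 (-0.42 and -0.45) were called lower in both. HOXA10 was called in opposite directions (-0.30 and 0.23). Neither comparison called 18 of the 36 genes.

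**Figure D4:**
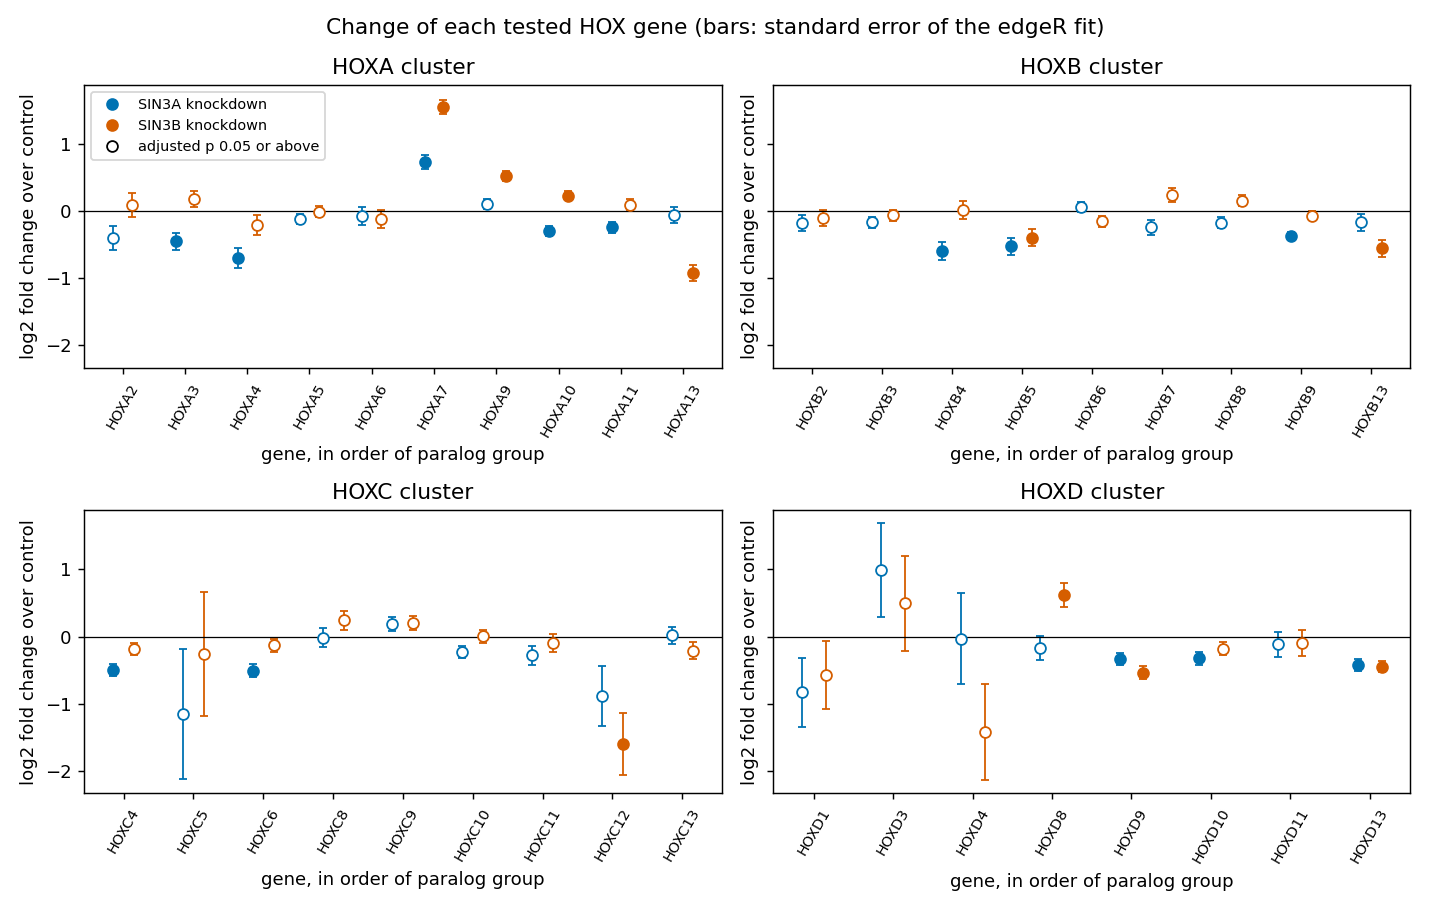
Log2 fold change over control of the 36 tested HOX genes in the order of paralog groups, for SIN3A and SIN3B knockdown (points, with bars for the SE of the edgeR fit; filled where called). HOXA7 is the highest filled point in both knockdowns, and filled points below 0 appear in all 4 clusters.

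Compared directly, SIN3A knockdown libraries held less of 13 HOX genes and more of 3 than SIN3B knockdown libraries. Over all genes 27.1% were called, 14.5% higher and 12.6% lower, and among other genes between the quartiles of the HOX levels 36.9% were called, 20.1% higher and 16.7% lower. The median log2 fold change of the HOX genes was -0.21, against -0.02 over all genes. Of the 8 genes called lower with SIN3A siRNA and uncalled with SIN3B siRNA, 7 were also lower in the direct comparison, all but HOXD10. Of the 5 called with SIN3B siRNA and uncalled with SIN3A siRNA, 4 differed in the direct comparison: HOXA9, HOXA13, HOXB13 and HOXD8. Both sets were picked by calls from the same knockdown libraries, which makes a direct difference likely, so these counts are no separate evidence.

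The largest differences by adjusted p lay in the HOXA cluster. HOXA7 was lower with SIN3A than with SIN3B siRNA (-0.82 ± 0.11, edgeR adjusted p = 8.2e-06), HOXA13 was higher (0.86 ± 0.12, edgeR adjusted p = 1.4e-05) and HOXA10 was lower (-0.53 ± 0.07, edgeR adjusted p = 1.9e-05). HOXA3 (-0.63 ± 0.12), HOXA9 (-0.42 ± 0.08) and HOXA11 (-0.33 ± 0.08) were lower too, and the groups of each of these 6 genes did not overlap. These genes were picked by their calls, and the knockdown groups of some uncalled HOX genes, such as HOXA2 and HOXC10, did not overlap either. HOXA3 was at 48, 47 and 38.4 CPM and HOXA11 at 67.1, 60.8 and 60.8 CPM in the SIN3B knockdown libraries. HOXA4, at 11.9, 16.6 and 16.1 CPM there, was called lower in SIN3A knockdown (-0.49 ± 0.15, edgeR adjusted p = 0.019) although its libraries overlapped. The HOXA4 call was lost without SIN3A knockdown replicate 1 (-0.41) or SIN3B knockdown replicate 2 (-0.40) or 3 (-0.43).

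Along the HOXB cluster the direct comparison also called HOXB7 and HOXB8, which neither knockdown had moved past the threshold against control. HOXB7 was at 26.4, 25 and 26.9 CPM in control, 24.3, 19.4 and 22.9 CPM in SIN3A knockdown and 32.1, 29 and 31.5 CPM in SIN3B knockdown libraries (-0.48 ± 0.11, edgeR adjusted p = 0.0027). HOXB8, which acts in myeloid progenitors, was at 60.5, 67.1 and 67 CPM in control, 52.8, 61.9 and 58.1 CPM with SIN3A siRNA and 71, 76.5 and 69.9 CPM with SIN3B siRNA (-0.33 ± 0.09, edgeR adjusted p = 0.0062). The control mean lay between the knockdown means in both genes. HOXB9 was at 364, 352 and 366 CPM and HOXB4 at 20.2, 19 and 16.9 CPM in SIN3B knockdown libraries, both above their SIN3A knockdown libraries (-0.30 ± 0.07 and -0.62 ± 0.14).

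HOXB6 and HOXB13 differed the other way. HOXB6 was at 67.2, 71.5 and 69.7 CPM in control, 74.3, 71.9 and 71.4 CPM in SIN3A knockdown and 66.1, 60.7 and 60.8 CPM in SIN3B knockdown libraries (0.21 ± 0.08, edgeR adjusted p = 0.044). Its call was lost under 11 of 20 alternatives, among them leaving out control replicate 1 (0.21), SIN3A knockdown replicate 2 (0.22) or SIN3B knockdown replicate 2 (0.19) or 3 (0.20). HOXB13 was at 17.5, 20.8 and 17.7 CPM in SIN3A knockdown libraries and higher than in SIN3B knockdown (0.38 ± 0.13, edgeR adjusted p = 0.029). That call was lost without SIN3A knockdown replicate 2 (0.30) or any of the SIN3B knockdown replicates (0.37, 0.41 and 0.39).

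HOXC4, HOXC6 and HOXD8 completed the 16 calls. HOXC4 was at 61.2, 64.1 and 58.5 CPM in SIN3B knockdown libraries, above SIN3A knockdown (-0.31 ± 0.09, edgeR adjusted p = 0.011), and its call was lost without SIN3B knockdown replicate 2 (-0.28). HOXC6 was at 39.8, 43.9 and 40.8 CPM (-0.38 ± 0.10, edgeR adjusted p = 0.007). HOXD8 was at 7.54, 5.32 and 7.51 CPM in SIN3A knockdown libraries, below SIN3B knockdown (-0.80 ± 0.18, edgeR adjusted p = 0.0023). HOXD10, at 58.3, 56.3 and 57.4 CPM in SIN3B knockdown libraries, overlapped the SIN3A knockdown libraries and was not called.

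**Figure D5:**
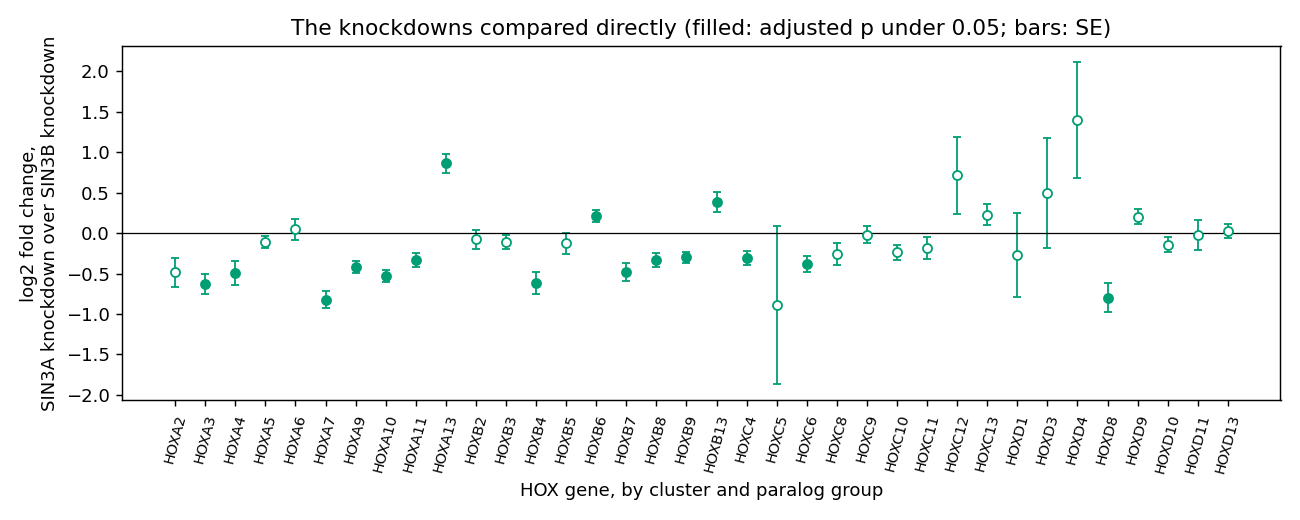
Log2 fold change of SIN3A over SIN3B knockdown for the 36 tested HOX genes by cluster and paralog group (points, with bars for the SE of the edgeR fit; filled where called). The 13 filled points below 0 include HOXA7 at -0.82, and the 3 above are HOXA13, HOXB6 and HOXB13.

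No comparison called 15 of the tested HOX genes. In the 12 of these above the floor in every library, log2 fold changes ran from -0.83 to 0.18 with SIN3A siRNA, from -0.57 to 0.24 with SIN3B siRNA and from -0.48 to 0.23 between the knockdowns. HOXA2, which patterns the second pharyngeal arch, came closest to a call, at 9.21, 13.3 and 9.3 CPM in control, 8.27, 7.82 and 8.14 CPM in SIN3A knockdown and 12.4, 12.7 and 8.8 CPM in SIN3B knockdown libraries (SIN3A over SIN3B knockdown -0.48 ± 0.18, edgeR adjusted p = 0.052). Its knockdown groups did not overlap. HOXC10 (SIN3A over SIN3B knockdown -0.23 ± 0.09, edgeR adjusted p = 0.07) and HOXC11 (SIN3A knockdown over control -0.28 ± 0.14, edgeR adjusted p = 0.15) followed.

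HOX transcripts are rich in G and C, with a median of 55.2% in the longest transcript against 48.6% over all genes tested, and fold changes moved with GC content in these libraries. The 2832 other genes between the GC quartiles of the HOX genes (52.2% to 57.7%) had a median log2 fold change of -0.06 with SIN3A siRNA, -0.12 with SIN3B siRNA and 0.06 between the knockdowns. With offsets for GC content and length, the HOX medians were -0.18, -0.01 and -0.23 in place of -0.23, -0.095 and -0.21. The HOX calls were then 1 higher and 11 lower with SIN3A siRNA, 6 higher and 5 lower with SIN3B siRNA, and 1 higher and 15 lower between the knockdowns. Leaving out SIN3A knockdown replicate 1 gave 10 HOX genes lower and 1 higher with SIN3A siRNA, and leaving out replicate 3 gave 12 and 1.

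The calls can also be set beside the promoter motif. Of the 9 genes with CACGTG, 1 rose and 4 fell with SIN3A knockdown and 2 rose and 1 fell with SIN3B knockdown, while of 9 tested genes without it 0 rose and 3 fell with SIN3A knockdown and 2 rose and 1 fell with SIN3B knockdown. Over all genes tested, 12.2% rose and 10.8% fell with SIN3A knockdown and 12.0% rose and 11.6% fell with SIN3B knockdown, and with 9 genes on each side no difference by motif is read from these counts. HOXA7 and HOXA9, which rose with SIN3B siRNA, and HOXD13, which fell, all hold the motif in the windows printed above. HOXA10 and HOXD8, which also rose, and HOXA13, which also fell, hold none in their windows.

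Noncoding transcripts of the HOX clusters, many of them antisense to HOX genes, were followed with the same test. Of 15 tested of 19 listed, 6 fell and 0 rose with SIN3A siRNA, and 5 fell and 1 rose with SIN3B siRNA (over all genes, 10.8% fell and 12.2% rose, and 11.6% fell and 12.0% rose), with median log2 fold changes of -0.57 and -0.44. HOXA11-AS, opposite HOXA11, was at 23.5, 26.1 and 23 CPM in control, 12.3, 10.6 and 9.71 CPM in SIN3A knockdown and 20.3, 18.7 and 16.5 CPM in SIN3B knockdown libraries. It fell with either siRNA (-1.16 ± 0.13, edgeR adjusted p = 5.3e-06, and -0.39 ± 0.13, edgeR adjusted p = 0.033), and no groups overlapped. HOTAIR, the HOXC antisense transcript known for its link to Polycomb complexes, was at 22.9, 29.9 and 24.9 CPM in control, 13.4, 15.6 and 13 CPM in SIN3A knockdown and 26.5, 24.4 and 21.8 CPM in SIN3B knockdown libraries. SIN3A siRNA lowered it (-0.88 ± 0.13, edgeR adjusted p = 8.4e-05), and the SIN3B knockdown libraries overlapped control.

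HOXA-AS2 fell with SIN3A siRNA from 9.21, 9.07 and 9.48 to 3.86, 6.57 and 5.48 CPM (-0.80 ± 0.19, edgeR adjusted p = 0.0044). HOXC-AS2 was at 7.46, 6.73 and 9.65 CPM in control, 2.76, 4.38 and 3.91 CPM in SIN3A knockdown and 3.52, 5.01 and 2.24 CPM in SIN3B knockdown libraries, lower with both siRNAs (-1.10 ± 0.26 and -1.14 ± 0.26). HOTAIRM1, a myeloid HOXA transcript, was at 22.3, 17.8 and 22.1 CPM in control and 16.1, 13.3 and 13.9 CPM in SIN3B knockdown libraries (-0.52 ± 0.13, edgeR adjusted p = 0.0046). HAGLR of the HOXD cluster was at 15.9, 14.2 and 16.5 CPM in control, 10.7, 12.5 and 11.3 CPM in SIN3A knockdown and 10.2, 9.72 and 12.3 CPM in SIN3B knockdown libraries, and fell with both siRNAs (-0.43 ± 0.14, edgeR adjusted p = 0.033, and -0.53 ± 0.14, edgeR adjusted p = 0.01). Reads of these transcripts and of the HOX genes opposite them cannot be told apart where the strand was not used in counting.

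Regulators and partners of HOX genes were followed beside them; the background to their counts is the 23.0% of all genes called with SIN3A siRNA (12.2% higher, 10.8% lower) and the 23.6% called with SIN3B siRNA (12.0% higher, 11.6% lower). Of 19 Polycomb genes, which encode subunits of the complexes that repress silent HOX genes, 2 rose and 3 fell with SIN3A siRNA, and 5 rose and 1 fell with SIN3B siRNA (median log2 fold changes of 0.065 and 0.014). SUZ12, a core subunit of PRC2, rose with either: it was at 60.2, 49.1 and 54.8 CPM in control, 73.9, 69.8 and 113 CPM in SIN3A knockdown and 99.2, 104 and 105 CPM in SIN3B knockdown libraries (0.64 ± 0.14 and 0.91 ± 0.14). Replicate 3 of the SIN3A knockdown stood above the others of its group. CBX6 fell with SIN3A siRNA (-0.38 ± 0.07, edgeR adjusted p = 0.00068). PHC3 rose with SIN3B siRNA (0.67 ± 0.13, edgeR adjusted p = 0.00066) and PHC2 fell (-0.40 ± 0.07, edgeR adjusted p = 0.00044).

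Of 17 Trithorax-type activators and boundary factors, 0 rose and 2 fell with SIN3A siRNA (ASH2L, -0.29 ± 0.10, and DOT1L, -0.25 ± 0.08), and 7 rose and 1, DOT1L again, fell with SIN3B siRNA (medians of 0.003 and 0.089), against 23.0% and 23.6% of all genes called. The 3 rises with the lowest adjusted p were those of the methyltransferase ASH1L (0.52 ± 0.09) and of DPY30 (0.44 ± 0.11) and RBBP5 (0.33 ± 0.09), shared subunits of the KMT2 complexes. Of 9 TALE cofactors, homeodomain proteins that bind DNA beside HOX proteins, 2 fell with each siRNA (medians of -0.073 and -0.055), near the share of all genes called in either direction. PBX2 fell with both (-0.25 ± 0.08 and -0.27 ± 0.08), PKNOX1 with SIN3A siRNA (-0.49 ± 0.09) and MEIS3 with SIN3B siRNA (-0.32 ± 0.11). The 11 tested genes of retinoic acid signalling and the CDX family, which act upstream of HOX genes in the embryo, include some that limit the signal. Of these 11 genes, 1 fell with SIN3A siRNA (RXRB, -0.26 ± 0.08), and 1 rose and 4 fell with SIN3B siRNA (medians of -0.31 and -0.394), where 11.6% of all genes fell. The retinoic acid carrier CRABP2 (-0.73 ± 0.12), the receptor RXRA (-0.59 ± 0.13) and CDX2 (-0.40 ± 0.10) had the lowest adjusted p of those. Of 5 further homeobox genes only PDX1 was tested, and it fell with SIN3A siRNA (-0.71 ± 0.22, edgeR adjusted p = 0.024).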

How the data were processed

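Poly-A selected RNA of 9 HEK293T libraries was counted per Ensembl gene. The deposited counts were made with Trimmomatic 0.36, HISAT2 2.1.0, GRCh38 and HTSeq, per the submitters' processing notes, which also name DESeq2 1.20.0. The authors deposited FPKM for the same libraries, used here only as an alternative. Groups came from sample titles, since the treatment text of each sample ends with the control siRNA.

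Counts were fitted in edgeR 4.0.16 (R 4.3.3) with TMM factors, filterByExpr (minimum count 10, total 15) and the robust quasi-likelihood test, in 1 fit of 9 libraries with 6 residual degrees of freedom. Two-sided p-values were adjusted by Benjamini-Hochberg over 16686 tested of 58734 genes. The procedure was tested on simulated data. Values per library were given for every HOX gene called in any of the 3 comparisons and the 2 of each cluster with the highest control RPKM, and in each list the 3 called genes with the lowest adjusted p were named. The members, lists and motifs were chosen with earlier results of these data known. One HOX gene (39 in the rule) is not reported here.

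Alternatives were other factors and filters, DESeq2 1.42.0, fits of the 6 libraries compared, the replicate block, counts divided by 4, limma 3.58.1 on log2 FPKM with pseudocounts of 1 and 0.1, and leaving out each library. Offsets for GC content and length, and a fit with no robust estimation, were added after seeing the data.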

Additional observations from a re-analysis of the deposited data

How the results depend on the processing

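Of 2141 values of single HOX genes under 20 alternatives, 2059 kept their side of the threshold, 67 lost a call and 15 gained one. No call (0) reversed its direction. Among the 2059 are 52 values that were called under neither setting and changed sign. Every alternative kept 8 of 13 calls with SIN3A siRNA, 6 of 10 with SIN3B siRNA and 12 of 16 between the knockdowns. Limma on log2(FPKM + 0.1) called 2505 genes with SIN3A siRNA in place of 3836, and GC and length offsets left 1 HOX gene higher in the direct comparison in place of 3; the cause was not tested. Leaving out 1 library each gave 2 to 4 HOX genes higher with SIN3B siRNA (2 without control replicate 2 or SIN3B knockdown replicate 2) and 1 to 3 higher in the direct comparison (1 without SIN3A knockdown replicate 2 or SIN3B knockdown replicate 2 or 3). HOX genes lower ranged over 8 to 12, 4 to 6 and 11 to 14, with 8 without control replicate 3 and 4 without control replicate 2 or SIN3B knockdown replicate 3.

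Libraries of the same replicate number did not deviate together (correlations of -0.03 to 0.04). The main fit did not use the numbers as pairs, and the correlations cannot tell whether same-numbered libraries were made together. With the replicate block, 3478, 3655 and 4239 genes were called in the 3 comparisons in place of 3836, 3939 and 4527, and HOX calls were 1 higher and 11 lower, 4 and 6, and 2 and 13. Calls under about 0.5 CPM were limited by depth, as HOXB1, HOXC5, HOXD3, HOXD4 and HOXD12 lay near the floor of 12 counts.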

Other observations

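Genes beside the clusters, chosen after the HOX values were seen, both rose and fell with each siRNA. Between the knockdowns, most of those called were higher with SIN3A siRNA, while 3 HOX genes were higher and 13 lower. Of 33 tested protein-coding genes within 500 kb of the 4 clusters, 7 rose and 5 fell with SIN3A siRNA, 2 rose and 6 fell with SIN3B siRNA, and 11 were higher and 2 lower in SIN3A than in SIN3B knockdown. Over all genes tested 12.2% rose and 10.8% fell with SIN3A siRNA, 12.0% rose and 11.6% fell with SIN3B siRNA, and 14.5% were higher and 12.6% lower between the knockdowns, so the total called with SIN3B siRNA is near the share of all genes. SKAP2, an adaptor gene beside the HOXA cluster, rose with either siRNA, from 31.8, 31.1 and 27.7 CPM in control to 37.7, 40.4 and 49.2 CPM with SIN3A siRNA and 39.9, 46 and 41.4 CPM with SIN3B siRNA (0.49 ± 0.11 and 0.49 ± 0.11). CBX5, which encodes the heterochromatin protein HP1 alpha and lies beside the HOXC cluster, fell with either (-0.70 ± 0.06, edgeR adjusted p = 3.3e-07, and -0.27 ± 0.06, edgeR adjusted p = 0.0046). CALCOCO1, in the same neighbourhood, was at 73.4, 70.4 and 77.7 CPM in control and 106, 126 and 128 CPM with SIN3A siRNA (0.70 ± 0.08, edgeR adjusted p = 7e-06). Beside the HOXD cluster, LNPK rose (0.41 ± 0.11) and MTX2 fell (-0.50 ± 0.10) with SIN3B siRNA, and neither was called with SIN3A siRNA.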
